A study of Mus musculus with 42 samples.

Results

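The genes described here are 39 genes of central carbon metabolism, 20 of glycolysis, 7 of the pentose phosphate pathway and 12 of the TCA cycle, among 19752 gene symbols on the array. They were followed in regulatory CD4+ T cells (Treg) and conventional CD4+ T cells (Tconv) given KT3, an antibody against CD3, which carries the signal of the T cell receptor. For each symbol the transcript cluster with the highest mean was used, and the pathways were kept apart. A cluster of its own was found for 35 members, 17 of glycolysis, 6 of the pentose phosphate pathway and 12 of the TCA cycle, and all 35 passed the filter on dim genes. Gpi1, Eno1 and G6pdx were not named in the platform's gene table, and Gapdh was named only in clusters shared with other symbols, so these 4 were not analysed here. Of 3 members with 2 clusters, Pgk1 and Pgam1 read alike on both (largest gap on any array 0.12 and 0.27 log2 units), while the clusters of Ldhb differed by up to 1.76.

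The arrays were Affymetrix ST1.0 gene arrays of spleen cells from NOD mice, a strain prone to autoimmune diabetes, that carried GFP with Foxp3, the defining transcription factor of Treg. Treg were sorted as CD4+ GFP+ cells and Tconv as CD4+ GFP- cells, both negative for B220, CD8a, CD11b and CD11c. In vivo, KT3 was injected intravenously into Foxp3-IRES-GFP females of 8 weeks. In vitro, splenocytes of Foxp3-IREs-GFP+/+ mice were cultured with KT3 at 1.25 µg/ml; there the arrays numbered 1 came from females of 9 weeks and those numbered 2 from males of 14 weeks. Sex and age thus go with the array number in vitro. Of the 46 member calls gained with the number as a term of the fit (a replicate block), only some are marked. The share of all genes called with the block is not given, so calls gained with it cannot be set against that share. The labels give the GFP- gate for both cell types in vitro. Each cell type and setting had 2 arrays at 0, 2, 8, 24 and 72 h, and 1 array per cell type was made in vivo 24 h after rat IgG, which makes 22 groups on 42 arrays. The labels do not say whether both arrays of an in vivo group are from different mice. The p-values therefore measure only the spread between arrays, which may be technical. Levels are log2 intensities. Differences between groups are log2 differences ± the standard error (SE) of the limma fit, and a gene was called where its Benjamini-Hochberg adjusted p over 12425 genes was under 0.05. With 2 arrays in most groups precision is limited, and levels of different genes are not compared. Where groups are said not to overlap, this only describes the arrays, and its share over all genes was not counted.

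Glycolysis turns glucose into pyruvate in the cytosol: transporters bring glucose in, hexokinase traps it by phosphorylation, phosphofructokinase commits it, and lactate dehydrogenase converts pyruvate into lactate. The pentose phosphate pathway branches off after hexokinase and yields NADPH and ribose phosphate for nucleotides, and the TCA cycle oxidises the acetyl group of pyruvate in mitochondria. T cells activated through their receptor are known for a strong rise in glucose uptake and lactate output, and Myc and HIF-1 are transcription factors known to act on glycolysis genes in them.

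The promoters of Hk2, Pgam1 and Ldha are shown because these 3 members were called higher at 2 h in vivo in both cell types. Each run is the 250 bases before a RefSeq transcription start, 5′ to 3′ in the direction of the gene, at chr6:82774455-82774704 (minus strand), chr19:41911621-41911870 (plus strand) and chr7:46845554-46845803 (plus strand) of build GRCm38.p6. Ldha has a further start, whose window is not shown. Capitals mark CACGTG, the E-box that Myc binds, and ACGTG or GCGTG, the core that HIF-1 binds, on either strand; every CACGTG also holds ACGTG.
Hk2: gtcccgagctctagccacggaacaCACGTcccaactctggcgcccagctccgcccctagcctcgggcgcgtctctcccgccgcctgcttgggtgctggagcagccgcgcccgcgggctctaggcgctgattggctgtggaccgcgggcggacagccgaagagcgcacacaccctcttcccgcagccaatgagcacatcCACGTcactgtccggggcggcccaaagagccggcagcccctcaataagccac
Pgam1: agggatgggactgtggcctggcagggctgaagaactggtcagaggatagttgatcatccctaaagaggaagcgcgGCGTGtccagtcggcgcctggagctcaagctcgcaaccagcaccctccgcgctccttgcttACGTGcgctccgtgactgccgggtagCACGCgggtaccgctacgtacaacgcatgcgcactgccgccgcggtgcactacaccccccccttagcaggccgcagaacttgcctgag
Ldha: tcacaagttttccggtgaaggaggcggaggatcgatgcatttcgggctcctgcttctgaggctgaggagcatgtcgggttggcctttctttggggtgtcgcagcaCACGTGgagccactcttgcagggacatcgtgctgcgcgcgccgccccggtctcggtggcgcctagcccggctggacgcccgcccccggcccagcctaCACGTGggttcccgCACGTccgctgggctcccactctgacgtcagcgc
The Ldha run held CACGTG at 145 and 48 bases before the start, whereas Hk2 held ACGTG at 2 places and Pgam1 held ACGTG at 1 place and GCGTG at 2. The window of the further Ldha start (chr7:46846832-46847081) held GCGTG at 1 place and neither CACGTG nor ACGTG. RefSeq listed 56 starts for 37 of the 39 members, and CACGTG was in 10.7% of the windows of 250 bases before them, against 6.02% of 32851 such windows of all genes. Windows of 1 gene can overlap, and the 3 TCA cycle windows with CACGTG were all of Ogdh. By gene, CACGTG was in windows of 4 of the 37 members and of 1854 of 27025 genes. ACGTG or GCGTG was in 78.6% of the members' windows and in 38.6% of all windows, and by gene in 31 of 37 members and 11226 of 27025 genes. A gene with more windows has more room for a match, and the number of windows per gene was not matched. The mean GC content was 58.8% in the members' windows and 53.2% in all, so the windows also differed in base composition. These are matches of letters, not measured binding.

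Before the results, 1 array has to be set apart. The Tconv array number 1 in vitro at 0 h had an interquartile range of 1.64 log2 units and a mean correlation with the other arrays of 0.51 over genes. The Tconv array number 1 at 8 h in vitro (2.1 and 0.79) and the Treg array number 1 at 0 h in vitro (2.19 and 0.87) came next, and the other 39 arrays had ranges from 2.29 to 3.21 and mean correlations from 0.86 to 0.91. On that Tconv array at 0 h the TCA cycle members lay below the number 2 array in 12 of 12 cases, by a median difference of -1.44 log2 units, and 10 of the 12 had their lowest value of all 42 arrays there. Glycolysis members were lower in 15 of 17 cases (median difference -0.70) and pentose phosphate members in 5 of 6 (-0.88). In the other 0 h groups the median differences between the arrays ran from 0.06 to 0.34. Tconv comparisons in vitro against 0 h are therefore given with and without it. Foxp3 was at 11.3 to 12.34 on Treg arrays and at 7.02 to 8.2 on Tconv arrays, in vitro included; the T cell genes Cd3e, Cd3g and Cd4 were between 10.41 and 12.99 on all arrays. In vivo, markers of B cells, macrophages, neutrophils, platelets and CD8 T cells were higher on the number 1 array in 10 of 10 groups (B cell markers, mean of 4 genes, 6.32 to 8.03 on number 1 and 5.31 to 5.89 on number 2 arrays). Of those 10 number 1 arrays 9 were single sorted. The part of these cells in the results was not tested, and pathway medians within each number are given beside the 8 h results.

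**Figure D1:**
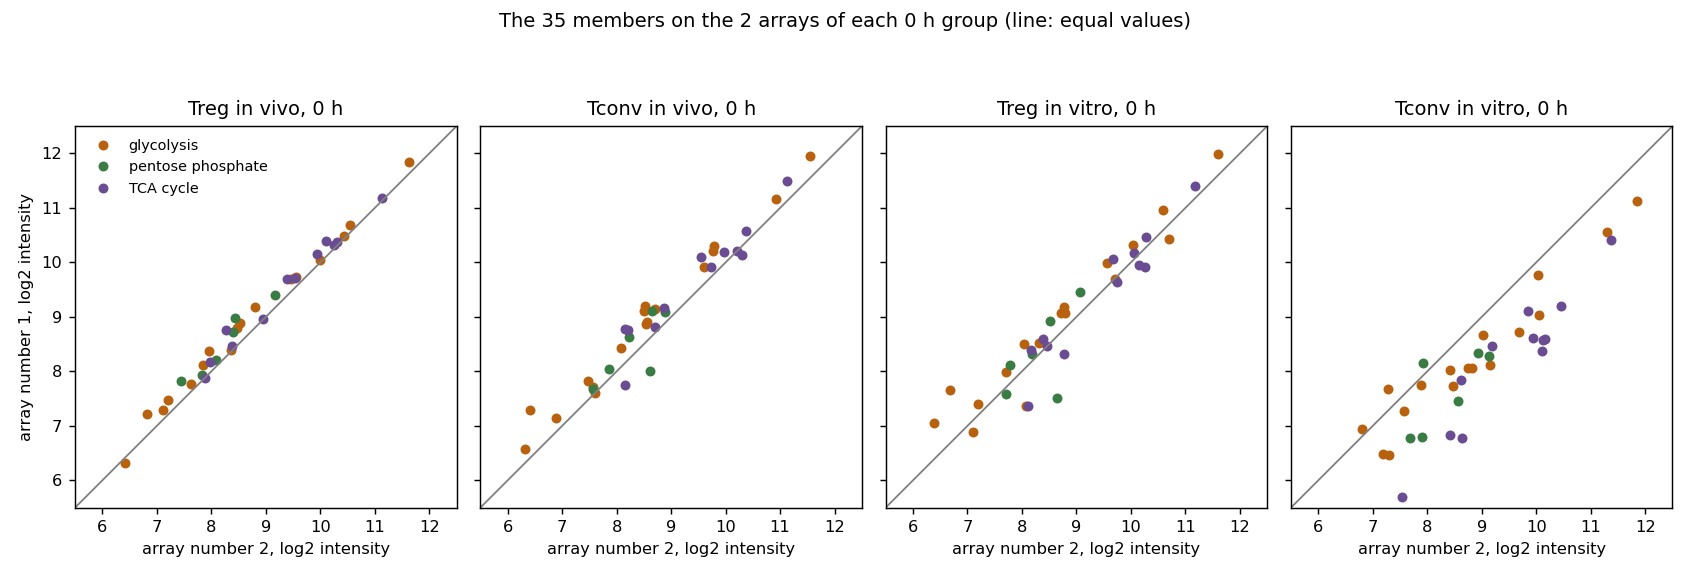
Log2 intensity of the 35 members on array number 1 (vertical) against array number 2 (horizontal) of each 0 h group, coloured by pathway, with the line of equal values. In the Tconv group in vitro most members lie below the line, with a median difference of -1.44 for the TCA cycle, while in the other 3 groups most lie close to it.

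In vivo, after 2 h of KT3 a small set of glycolysis genes was higher. Hexokinase 2 (Hk2), which traps glucose in the cell, phosphoglycerate mutase 1 (Pgam1) and lactate dehydrogenase A (Ldha) were called higher in both cell types, 3 of 17 glycolysis members in each, and Slc2a3, which encodes the glucose transporter GLUT3, was called lower in Treg. Of all genes, 6.45% were called in Treg at this time (5.04% higher, 1.42% lower) and 3.51% in Tconv (3.04% higher, 0.467% lower). The glycolysis median was 0.15 in Treg and 0.12 in Tconv, against -0.06 and -0.05 over all genes. Of the 6 pentose phosphate members only Rpia, which makes ribose 5-phosphate, was called, in Treg (0.7 ± 0.21, adjusted p = 0.0487; lost in 32 of the 42 fits that leave out 1 array, with an adjusted p of up to 0.451 without the Treg array number 2 at 0 h). No TCA cycle member was called in either cell type by limma (1 of 12 in each at an unadjusted p under 0.05). At that p there were 2042 of the 12425 genes tested in Treg and 1664 in Tconv. With sorted cells in bulk, fewer cells of a type and less RNA per cell cannot be told apart.

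Hk2 read 9.43 and 9.19 in Treg after 2 h of KT3, against 6.32 and 6.41 at 0 h. Its difference of 2.95 ± 0.34 log2 units, 7.72-fold, had an adjusted p of 1.84e-06. The 0 h values lay below the medians of those arrays (6.54 and 6.63), so the fold starts from dim signal. In Tconv, Hk2 read 8.22 and 7.46 after 2 h, against 6.57 and 6.32 at 0 h (1.4 ± 0.34, adjusted p = 0.0149). In both cell types the arrays after KT3 and at 0 h did not overlap. Pgam1, which moves the phosphate within phosphoglycerate, read 9.19 and 9.43 in Treg after 2 h, against 8.39 and 8.37 at 0 h (0.93 ± 0.26, adjusted p = 0.029). In Tconv Pgam1 read 10.29 and 9.71, against 8.87 and 8.53 at 0 h (1.3 ± 0.26, adjusted p = 0.00308). Ldha, which turns pyruvate into lactate, read 12.67 and 12.58 in Treg, against 11.84 and 11.62 at 0 h (0.9 ± 0.22, adjusted p = 0.00886). In Tconv Ldha read 12.88 and 12.44, against 11.96 and 11.54 (0.91 ± 0.22, adjusted p = 0.0125). The groups did not overlap for these genes either. Hk2 in Treg kept its call whichever array was left out. Without the Tconv array number 1 at 2 h, Hk2, Pgam1 and Ldha lost the call in Tconv (adjusted p = 0.41, 0.176 and 0.354), as they did without the 0 h array number 2 (0.186, 0.0914 and 0.267). Hk2 also lost it without the 0 h array number 1 (0.0638). In Treg, Ldha lost it without the 2 h array number 1 or the 0 h array number 2 (0.133 and 0.134). Pgam1 lost it without any 1 of the 4 arrays compared (0.119 to 0.2).

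**Figure D2:**
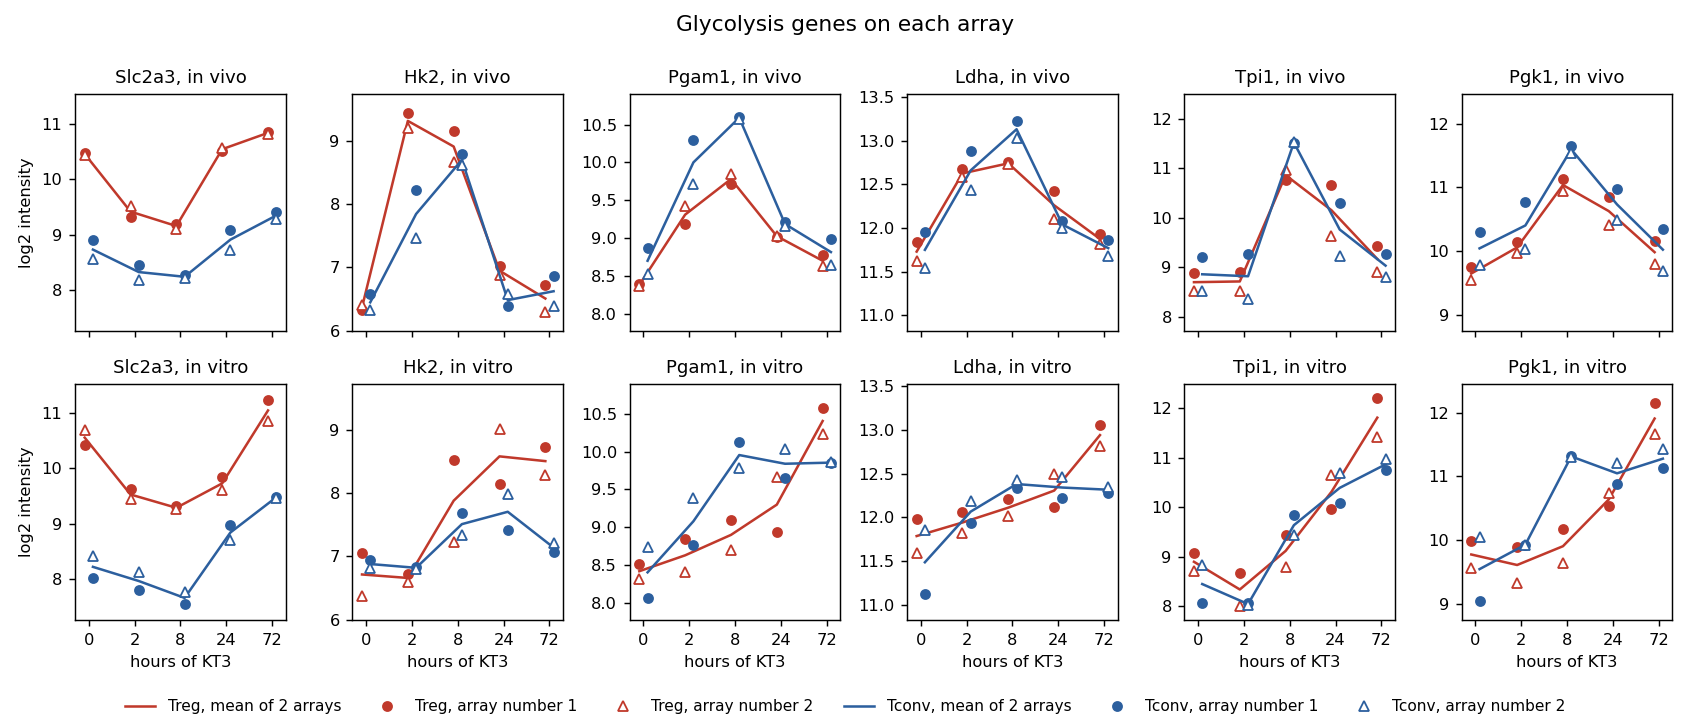
Log2 intensity of 6 glycolysis members at 0, 2, 8, 24 and 72 h of KT3 (equally spaced), in vivo above and in vitro below, in Treg (red) and Tconv (blue); filled circles are arrays number 1, open triangles arrays number 2 and lines the mean of both. In Treg in vivo Hk2 is highest at 2 h, at 9.43 and 9.19, and by 72 h reads 6.72 and 6.29, whereas in vitro it reads 8.73 and 8.28 at 72 h.

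At 8 h in vivo the response covered much of the glycolytic chain. In Treg, 8 of 17 glycolysis members were called higher and Slc2a3 lower, and in Tconv 10 of 17 were called higher and none lower. Among all genes 9.67% were called in Treg (6.36% higher, 3.31% lower) and 21% in Tconv (14.4% higher, 6.54% lower). Hk2, Pfkl, Aldoa, Tpi1, Pgk1, Pgam1, Pkm and Ldha were called higher in both cell types, from the liver type of phosphofructokinase (Pfkl) and aldolase A (Aldoa) to pyruvate kinase (Pkm). Pfkp, the platelet type of phosphofructokinase, and Pfkfb3, which makes the activator of phosphofructokinase, were called in Tconv and not in Treg (Pfkp in Treg had an adjusted p of 0.0687, and 0.04 with a replicate block); the difference between the cell types was called for no member at this time. The glycolysis median was 0.65 in Treg and 0.99 in Tconv, against -0.02 and -0.06 over all genes. Within the number 1 and within the number 2 arrays it was 0.59 and 0.73 in Treg and 0.98 and 1.01 in Tconv. In Treg the neutrophil markers (mean of 6 genes) also differed on the number 1 arrays, at 8.81 at 8 h, against 6.63 at 0 h, as did the B cell markers, at 8.03, against 7.06. On the number 2 arrays the neutrophil markers were at 5.54 at 8 h, against 5.7 at 0 h, and the B cell markers at 5.51, against 5.89.

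Triosephosphate isomerase (Tpi1), which interconverts the products of aldolase, read 10.77 and 10.96 in Treg at 8 h, against 8.88 and 8.52 at 0 h (2.17 ± 0.4, adjusted p = 0.000957). In Tconv it read 11.51 and 11.54, against 9.2 and 8.52 at 0 h, a difference of 2.67 ± 0.4 or 6.37-fold (adjusted p = 3.45e-05). In both cell types the 8 h arrays lay far above the 0 h arrays. Hk2 was still high, at 9.15 and 8.66 in Treg (2.54 ± 0.34, adjusted p = 2.2e-05 against 0 h) and 8.78 and 8.61 in Tconv (2.25 ± 0.34, adjusted p = 2.93e-05). Phosphoglycerate kinase 1 (Pgk1), an ATP-forming step, read 11.13 and 10.94 in Treg, against 9.74 and 9.55 at 0 h (1.39 ± 0.31, adjusted p = 0.00446). In Tconv Pgk1 read 11.65 and 11.54, against 10.3 and 9.78 (1.55 ± 0.31, adjusted p = 0.000609). Ldha read 12.75 and 12.73 in Treg (1.01 ± 0.22 against 0 h, adjusted p = 0.00299) and 13.23 and 13.03 in Tconv (1.38 ± 0.22, adjusted p = 4.76e-05). Again no 8 h array of these genes overlapped with the 0 h arrays of its cell type. Pfkfb3 read 8.64 and 8.27 in Treg, against 8.11 and 7.85 (0.48 ± 0.21, adjusted p = 0.176). In Tconv Pfkfb3 read 8.59 and 8.62, against 7.61 and 7.61 at 0 h (0.99 ± 0.21, adjusted p = 0.00098). Pfkp read 10.59 and 10.5 in Tconv, against 9.92 and 9.6 (0.78 ± 0.22, adjusted p = 0.0122). Pfkl, Pgk1 and Ldha lost the call in Treg without the Treg array number 2 at 0 h (adjusted p = 0.234, 0.0654 and 0.0614). Pfkl and Pgk1 also lost it without the 8 h array number 1 (0.14 and 0.0653), and Pfkl without the 8 h array number 2 (0.0666). Pfkp lost it in Tconv without the 0 h array number 2 (0.149) or the 8 h array number 1 (0.0883).

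Slc2a3 went the other way. In Treg it read 9.31 and 9.52 at 2 h and 9.2 and 9.11 at 8 h, against 10.48 and 10.43 at 0 h, differences of -1.04 ± 0.18 and -1.3 ± 0.18 log2 units (adjusted p = 0.000462 and 4.71e-05). In Tconv it read 8.27 and 8.21 at 8 h, against 8.9 and 8.56 at 0 h, a difference of -0.49 ± 0.18 that was not called (adjusted p = 0.063). At 24 h it was higher than at 8 h in both cell types, at 10.51 and 10.57 in Treg (1.39 ± 0.18, adjusted p = 0.000159) and 9.09 and 8.73 in Tconv (0.66 ± 0.18, adjusted p = 0.0108; 0.189 without the 24 h array number 1 and 0.0769 without the 8 h array number 2). Slc2a1, which encodes GLUT1, the transporter best known from activated T cells, was not called at any time against 0 h. It read 9.39 and 9.13 in Treg at 8 h in vivo, against 8.79 and 8.48 at 0 h (0.62 ± 0.28, adjusted p = 0.206). In Tconv Slc2a1 read 9.35 and 9.24, against 9.11 and 8.5 (0.49 ± 0.28, adjusted p = 0.248).

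In the pentose phosphate pathway 1 of 6 members was called higher in Treg at 8 h in vivo and 3 of 6 in Tconv. Pgd, which releases the second NADPH, was called in both cell types, at 9.66 and 9.37 in Treg, against 8.73 and 8.39 at 0 h (0.96 ± 0.29, adjusted p = 0.033). In Tconv Pgd read 10.23 and 9.88, against 9.1 and 8.64 (1.19 ± 0.29, adjusted p = 0.00344). Transketolase (Tkt), which links the pathway back to glycolysis, read 9.81 and 9.59 in Treg, against 9.41 and 9.17 at 0 h (0.41 ± 0.29, adjusted p = 0.512). In Tconv it read 10.54 and 10.26, against 9.09 and 8.88 (1.41 ± 0.29, adjusted p = 0.000909). The Treg minus Tconv difference for Tkt was -1.0 ± 0.41 and was not called (adjusted p = 1.0). Rpia read 8.7 and 8.64 in Tconv, against 7.67 and 7.57 at 0 h (1.05 ± 0.21, adjusted p = 0.000732). With a replicate block Pgls was called higher in Tconv too (0.49, adjusted p = 0.0288, against 0.0989 without it). The pathway median was 0.36 in Treg and 0.77 in Tconv. Within the number 1 and within the number 2 arrays it was 0.4 and 0.45 in Treg and 0.81 and 0.74 in Tconv. Pgd lost its call in Treg without any 1 of the 4 arrays compared (adjusted p = 0.0671 to 0.293). In Tconv Pgd lost it without the 0 h array number 2 or the 8 h array number 1 (0.0755 and 0.061), and Rpia and Tkt in Tconv kept theirs whichever array was left out.

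In the TCA cycle 0 of 12 members were called in Treg at 8 h in vivo by limma. There 3 had an unadjusted p under 0.05, as did 2511 of the 12425 genes tested. In Tconv 4 of 12 members were called higher at 8 h in vivo. Isocitrate dehydrogenase 3 alpha (Idh3a), the catalytic subunit of the NAD-linked step, read 9.87 and 9.71 in Treg, against 8.96 and 8.94 at 0 h (0.84 ± 0.32, adjusted p = 0.107). In Tconv Idh3a read 10.3 and 10.41, against 8.81 and 8.71 (1.6 ± 0.32, adjusted p = 0.000631). The groups did not overlap in either cell type. Fumarase (Fh1) read 9.5 and 9.18 in Treg, against 8.75 and 8.26 (0.83 ± 0.38, adjusted p = 0.203). In Tconv Fh1 read 10.1 and 9.78, against 8.75 and 8.2 (1.46 ± 0.38, adjusted p = 0.00615). Suclg1 of succinyl-CoA ligase (1.09) and the mitochondrial malate dehydrogenase Mdh2 (0.97) were the other calls in Tconv. Cs and Idh2 were not called in vivo. Cs read 10.64 and 10.84 in Treg at 8 h, against 10.31 and 10.25 (0.46 ± 0.27, adjusted p = 0.379). In Tconv Cs read 10.81 and 10.84, against 10.21 and 10.2 (0.63 ± 0.27, adjusted p = 0.102). Idh2 read 7.75 and 7.66 in Treg at 2 h, against 8.46 and 8.38 (-0.72 ± 0.26, adjusted p = 0.122; 0.0468 with a replicate block). In Tconv Idh2 read 8.36 and 8.27, against 9.17 and 8.87 (-0.71 ± 0.26, adjusted p = 0.171). The 2 h and 0 h arrays of Idh2 did not overlap. The TCA cycle median was 0.39 in Treg and 0.64 in Tconv, with 0.4 and 0.29 in Treg and 0.62 and 0.62 in Tconv within the number 1 and the number 2 arrays. Without the Tconv array number 2 at 0 h the calls of Suclg1, Fh1 and Mdh2 were lost (adjusted p = 0.138, 0.101 and 0.0666), and those of Suclg1 and Fh1 also without the 8 h array number 1 (0.131 and 0.0719). Idh3a kept its call whichever array was left out. The in vitro arrays enter these comparisons only through the shared spread. With only the in vivo arrays in the fit, the TCA cycle calls over all times were 3 in Treg, against 0, and 8 in Tconv, against 4. Leaving out either Tconv array at 0 h in vitro also raised both counts. The share of all genes called in these fits is not given.

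**Figure D3:**
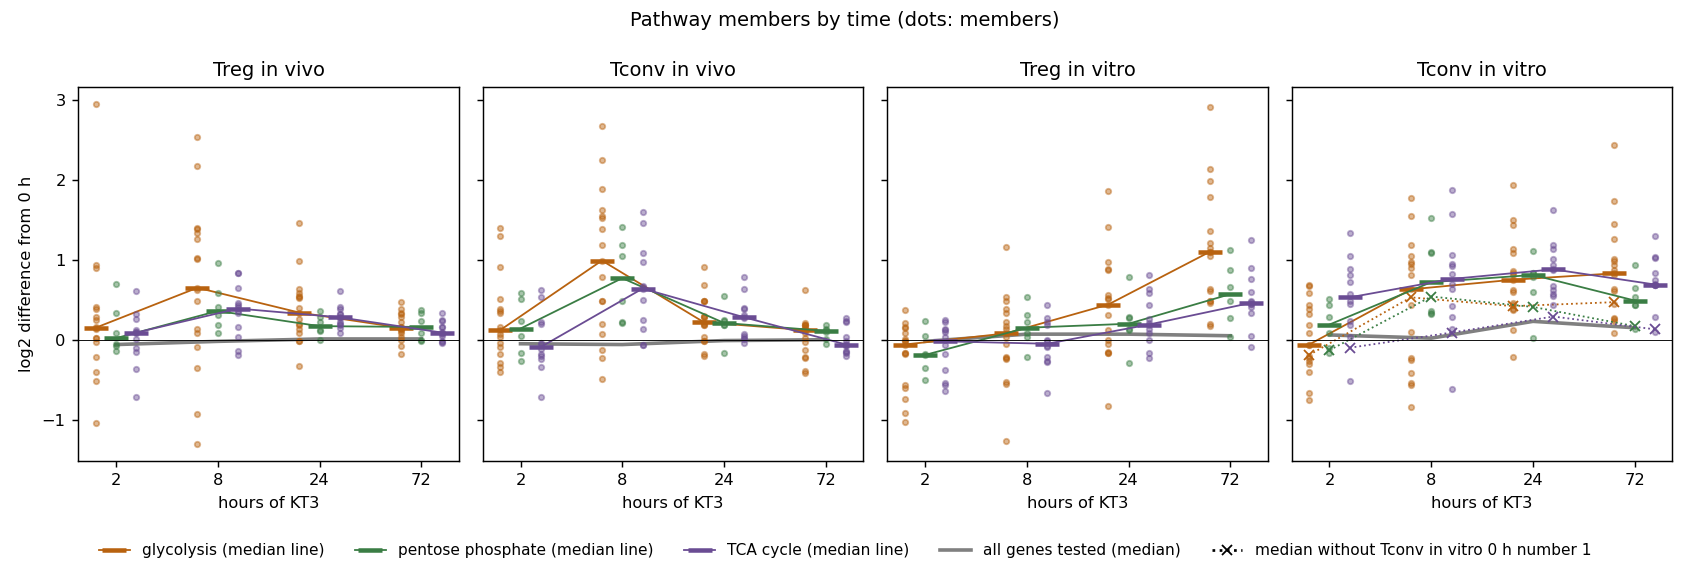
Log2 difference from 0 h of each member (dots) at 2, 8, 24 and 72 h of KT3 (equally spaced), with the median of each pathway (bars joined by lines) and of all genes tested (grey line); in the Tconv in vitro panel crosses joined by dotted lines give the medians without the 0 h array number 1. In vivo the glycolysis median is highest at 8 h (0.65 in Treg and 0.99 in Tconv), and in Treg in vitro at 72 h (1.1).

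At 24 and 72 h in vivo no member was called against 0 h in either cell type by limma, while 0.483% and 0.0241% of all genes were called in Treg and 2.4% and 0.29% in Tconv. At an unadjusted p under 0.05, 6 of 17 glycolysis members differed in Treg at 24 h and 3 in Tconv. At 72 h 1 did so in each cell type. In Tconv 1 TCA cycle member did so at 24 h. Of the 12425 genes tested, 744 did so in Treg and 1114 in Tconv at 24 h, and 276 and 446 at 72 h. Compared with 8 h, 8 glycolysis, 3 pentose phosphate and 3 TCA cycle members were called lower at 24 h in Tconv, where 19.4% of all genes were called (8.46% higher, 10.9% lower). Hk2 fell to 6.38 and 6.58 in Tconv at 24 h, against 8.78 and 8.61 at 8 h (-2.21 ± 0.34, adjusted p = 2.76e-05), and Idh3a to 8.82 and 8.8, against 10.3 and 10.41 (-1.55 ± 0.32, adjusted p = 0.000877). Tkt fell to 9.86 and 9.22, against 10.54 and 10.26 (-0.86 ± 0.29, adjusted p = 0.0391; 0.377 without the 24 h array number 2, and 0.239 and 0.0742 without an 8 h array). Of the other calls between these times in Tconv, single arrays also ended those of Slc2a3, Tpi1, Pfkfb3, Pgd, Suclg1 and Mdh2. With a replicate block Slc2a1, Pfkp and Pgk1 were called lower there as well (adjusted p = 0.0486, 0.036 and 0.0187, against 0.0938, 0.0578 and 0.0512). In Treg only Hk2 was called lower between these times, at 7.02 and 6.87, against 9.15 and 8.66 (-1.96 ± 0.34, adjusted p = 0.000868), where 4.84% of all genes were called (2.63% higher, 2.21% lower). There 1936 of the 12425 genes tested had an unadjusted p under 0.05. In the same comparison 9 of 17 glycolysis members had an unadjusted p under 0.05, and the number called lower was 5 after quantile normalization, 3 with a replicate block (Aldoa and Pkm besides Hk2) and 4 without the Tconv array number 1 at 0 h in vitro. Tpi1 read 10.67 and 9.64 in Treg at 24 h, against 8.88 and 8.52 at 0 h (1.46 ± 0.4, adjusted p = 0.135; 0.0281 with a replicate block). In Tconv Tpi1 read 10.3 and 9.23, against 9.2 and 8.52 (0.91 ± 0.4, adjusted p = 0.474). Its 24 h arrays still lay above the 0 h arrays, though without a call. At 72 h it read 9.44 and 8.9 in Treg and 9.27 and 8.8 in Tconv.

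After rat IgG no member was called against 0 h, nor was any other gene (0% in both cell types). No member had an unadjusted p under 0.05, while 198 of the 12425 genes tested did in Treg and 19 in Tconv. On the single IgG array of each cell type Hk2 read 6.46 in Treg and 6.08 in Tconv, Tpi1 8.67 and 8.75, and Ldha 11.56 and 11.76. KT3 against IgG at 24 h called no member either by limma, with 0.274% of all genes called in Treg and 1.47% in Tconv. At an unadjusted p under 0.05, 10 of 35 members differed in Treg and 3 in Tconv. Of the 12425 genes tested, 1693 did so in Treg and 855 in Tconv. The median differences of KT3 from IgG in Treg were 0.41, 0.6 and 0.61 for glycolysis, the pentose phosphate pathway and the TCA cycle. In Tconv they were 0.26, 0.37 and 0.25. Over all genes the median was 0.1 in Treg and -0.04 in Tconv. In Treg it was 0.25 with each array centred on its median and -0.05 after quantile normalization. With 1 IgG array per cell type, that array is taken to vary like the others. Both IgG arrays were numbered 2, whereas the KT3 and 0 h groups hold both numbers. At 0 h in vivo the pathway medians of number 1 minus number 2 ran from 0.13 to 0.34. The part of the array number in the differences from IgG was not tested.

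In vitro, calls in Treg came late. At 2 and 8 h few glycolysis members were called in Treg (0 higher and 2 lower of 17 at 2 h, 1 and 1 at 8 h). At 24 h 4 were higher and 1 lower and at 72 h 10 were higher and none lower. Among all genes 5.64%, 5.61%, 5.95% and 9.11% were called at 2, 8, 24 and 72 h. Of these 4.02%, 4.52%, 5.01% and 7.34% of all genes were higher and 1.63%, 1.09%, 0.934% and 1.77% lower. The glycolysis median was -0.06, 0.08, 0.44 and 1.1 at these times, and the median of all genes -0.02, 0.07, 0.07 and 0.05. In the pentose phosphate pathway only Pgd was called (1.12 ± 0.29 at 72 h, adjusted p = 0.0113) and in the TCA cycle only Fh1 (1.25 ± 0.38 at 72 h, adjusted p = 0.0368). With a replicate block Tkt and Mdh1 were called there too (adjusted p = 0.018 and 0.026, against 0.0651 and 0.0646 without the block). After quantile normalization, 4 TCA cycle changes in Treg in vitro were called lower and none higher.

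Tpi1 in Treg in vitro read 9.08 and 8.71 at 0 h, 8.66 and 8.01 at 2 h, 9.44 and 8.79 at 8 h, 9.97 and 10.65 at 24 h, and 12.2 and 11.42 at 72 h. The 72 h difference was 2.91 ± 0.4, 7.54-fold (adjusted p = 1.37e-05), and both 72 h arrays lay above all earlier ones. Pgk1 read 12.16 and 11.66 at 72 h, against 9.98 and 9.57 at 0 h (2.13 ± 0.31, adjusted p = 2.56e-05), and Pgam1 10.58 and 10.23, against 8.52 and 8.32 (1.98 ± 0.26, adjusted p = 6.52e-06). With a replicate block Pgk1 was called higher at 24 h too (adjusted p = 0.0408, against 0.096 without it). Hk2 read 8.53 and 7.23 at 8 h, 8.15 and 9.01 at 24 h and 8.73 and 8.28 at 72 h, against 7.05 and 6.38 at 0 h. It was called at all 3 times (1.16 ± 0.34, 1.86 ± 0.34 and 1.79 ± 0.34, adjusted p = 0.0401, 0.00102 and 0.00061). Both arrays were above both 0 h arrays at each of these times. Ldha read 13.06 and 12.82 at 72 h, against 11.98 and 11.59 (1.15 ± 0.22, adjusted p = 0.000562). Pyruvate dehydrogenase kinase 1 (Pdk1), which holds pyruvate back from the TCA cycle, read 8.3 and 8.12 at 72 h, against 6.89 and 7.1 at 0 h (1.21 ± 0.31, adjusted p = 0.0117). Slc2a3 was again lower at first, at 9.62 and 9.44 at 2 h and 9.32 and 9.26 at 8 h, against 10.42 and 10.69 at 0 h (-1.03 ± 0.18 and -1.26 ± 0.18, adjusted p = 0.00059 and 5.98e-05). It read 11.23 and 10.86 at 72 h. Within the female and within the male arrays the glycolysis median was 1.08 and 1.01 at 72 h, and 0.15 and 0.69 at 24 h. The call of Hk2 at 8 h was lost without the 8 h array number 1 (adjusted p = 0.741) and without either 0 h array (0.0558 and 0.155). Each of the 5 glycolysis calls at 24 h was lost without the 24 h array number 2 (Hk2 0.055, Slc2a3 0.1, Aldoa 0.114, Tpi1 0.21 and Pgam1 0.281). Aldoa and Tpi1 also lost it without each of the other 3 arrays compared, and Pgam1 without either 0 h array. Pdk1, Pgd and Fh1 were not called at 72 h without the 72 h array number 1 (0.135, 0.182 and 0.372). Pdk1 and Fh1 were not called without the 0 h array number 1 either (0.117 and 0.156), nor Pgd and Fh1 without the 0 h array number 2 (0.0849 and 0.0822).

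**Figure D4:**
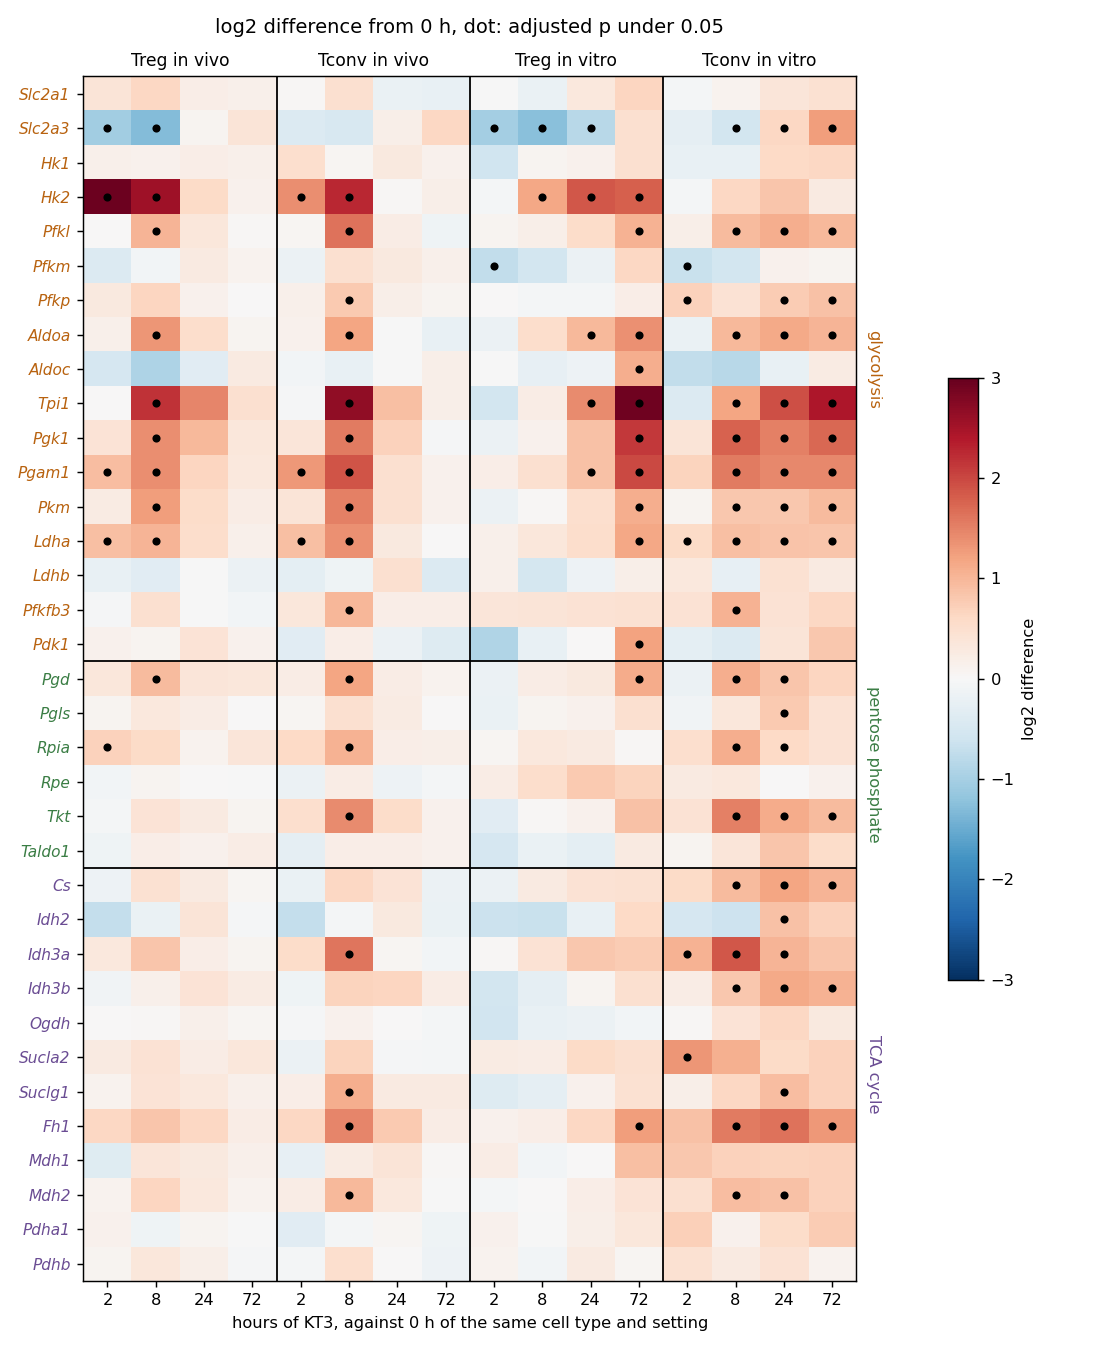
Log2 difference from 0 h of the 35 members, grouped by pathway, in 16 comparisons (2, 8, 24 and 72 h of KT3 in each cell type and setting), red for higher and blue for lower on a scale from -3 to 3; a dot marks an adjusted p under 0.05. In vivo the dots lie at 2 and 8 h, in Treg in vitro most lie at 72 h (10 of 17 glycolysis members), and most of those of Tconv in vitro rest on 1 array at 0 h.

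In vitro Tconv gave the most calls, but most of them rested on the 0 h array that stood apart. With all arrays 3, 9, 9 and 9 of 17 glycolysis members were called at 2, 8, 24 and 72 h, as were 0, 3, 4 and 1 of 6 pentose phosphate members and 2, 5, 7 and 3 of 12 TCA cycle members. Of all genes 26.3%, 18.9%, 26.8% and 7.55% were called. Without it 0, 4, 0 and 2 glycolysis members, 0, 2, 0 and 0 pentose phosphate members, and 0, 3, 0 and 0 TCA cycle members were called by limma, while 4.98%, 10.3%, 1.29% and 1.08% of all genes were. The TCA cycle median at 24 h was 0.88 with all arrays and 0.29 without, and that of glycolysis 0.75 and 0.42. The median of all genes at 24 h was 0.23 with all arrays, 0.43 with each array centred on its median and 0.17 after quantile normalization, and the members' differences are to be read against that shift. Within number 1 the medians at 8 h were 0.87 for glycolysis, 1.09 for the pentose phosphate pathway and 1.31 for the TCA cycle, and within number 2, which does not use that array, 0.33, 0.48 and 0.26.

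At 8 h the members called with and without that array in Tconv were Pgk1, Pgam1, Pfkfb3, Tkt, Rpia and Idh3a, all higher, and Slc2a3, which was lower. Without the 3 arrays of narrowest range, the 8 h array number 1 among them, Pgk1, Pgam1, Rpia and Tkt lost the call (adjusted p = 0.0623, 0.0812, 0.168 and 0.157), as did Slc2a3 (0.125). The call of Slc2a3 was lost without either 8 h array or the other 0 h array (adjusted p = 0.16, 0.0601 and 0.142). Pgk1 read 11.32 and 11.31 at 8 h, against 9.04 and 10.05 at 0 h (1.77 ± 0.31, adjusted p = 0.000233; 1.26 ± 0.34 without the array, adjusted p = 0.0147). Tkt read 10.37 and 10.12, against 8.29 and 9.14 (1.52 ± 0.29, adjusted p = 0.000629; 1.1 ± 0.33 without, adjusted p = 0.0301). Idh3a read 9.41 and 9.58, against 6.83 and 8.41 (1.87 ± 0.32, adjusted p = 0.000187; 1.08 ± 0.28 without, adjusted p = 0.0117). Both 8 h arrays were above both 0 h arrays for these genes. Idh2, the NADP-linked isocitrate dehydrogenase of mitochondria, and Pdha1, a pyruvate dehydrogenase subunit, were called lower at 8 h without the array (-0.98 ± 0.29 and -0.73 ± 0.21, adjusted p = 0.0329 and 0.0278) and not with it (-0.62 ± 0.26 and 0.14 ± 0.3, adjusted p = 0.105 and 0.76; 0.0468 for Idh2 with a replicate block). At 72 h, Tpi1 read 10.75 and 10.98, against 8.06 and 8.83 at 0 h, and was called with the array (2.43 ± 0.4, adjusted p = 0.000586) and without it (2.04 ± 0.48, adjusted p = 0.0326). Slc2a3 read 9.49 and 9.47 at 72 h, against 8.03 and 8.42 at 0 h (1.26 ± 0.18, adjusted p = 0.000155; 1.06 ± 0.21 without, adjusted p = 0.00802). Citrate synthase (Cs), which opens the cycle, read 10.63 and 10.42 at 24 h, against 8.57 and 10.12 at 0 h, with 1.18 ± 0.27 and an adjusted p of 0.00505 with the array, and 0.4 ± 0.18 and 0.382 without. Likewise Fh1 at 24 h read 9.18 and 9.47, against 6.77 and 8.64 (1.62 ± 0.38, adjusted p = 0.00626, with the array; 0.69 ± 0.33 and 0.448 without). Sucla2 of succinyl-CoA ligase at 2 h read 8.22 and 7.66, against 5.69 and 7.53 (1.33 ± 0.42, adjusted p = 0.0239, with it; 0.41 ± 0.4 and 0.72 without).

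In the comparison of 24 h with 8 h, which uses no 0 h level, 4.54% of all genes were called in Tconv in vitro (3.63% higher). Of the members, 1 of glycolysis and 1 of the TCA cycle were called higher. The differences were positive for 13 of 17 glycolysis and 8 of 12 TCA cycle members. The lowest were those of Pfkfb3 (-0.62 ± 0.21, adjusted p = 0.0934) and Idh3a (-0.86 ± 0.32, adjusted p = 0.139), without a call. With a replicate block Hk1 and Pfkm were called higher too (adjusted p = 0.0341 and 0.0239, against 0.0794 and 0.076 without it). Idh2 read 9.87 and 9.54 at 24 h, against 8.02 and 8.4 at 8 h (1.5 ± 0.26, adjusted p = 0.00172), and Slc2a3 8.98 and 8.71, against 7.56 and 7.77 (1.18 ± 0.18, adjusted p = 0.00121). The times did not overlap for either gene, and both calls were lost without the 8 h array number 1 (0.107 and 0.0668), that of Idh2 also without the 24 h array number 1 (0.0649). In Treg in vitro no gene was called between 24 and 8 h (0%), with 5 of 17 glycolysis members at an unadjusted p under 0.05. Of the 12425 genes tested, 329 were at that p.

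**Figure D5:**
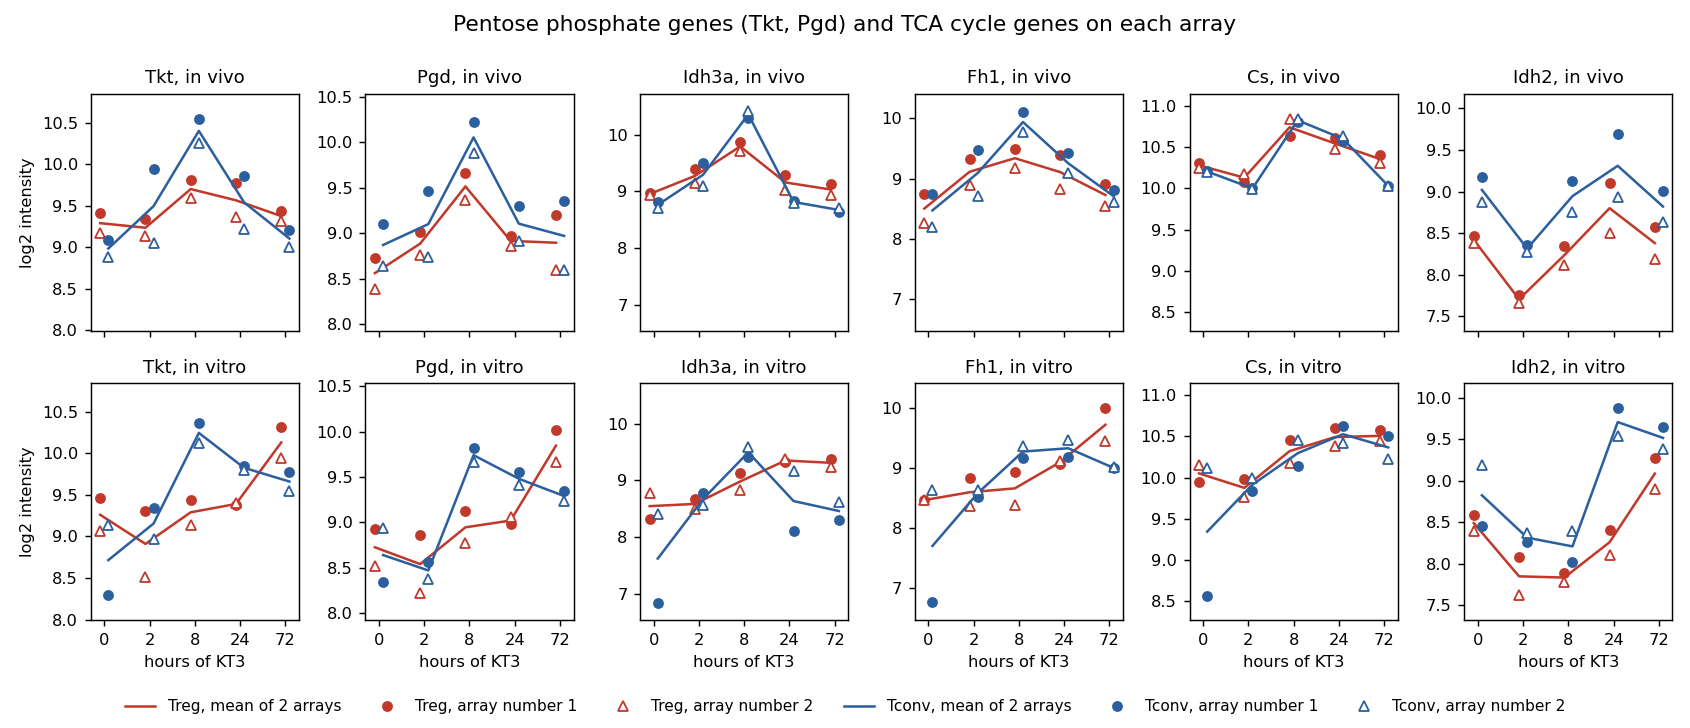
Log2 intensity of the pentose phosphate members Tkt and Pgd and the TCA cycle members Idh3a, Fh1, Cs and Idh2 at 0, 2, 8, 24 and 72 h of KT3 (equally spaced), in vivo above and in vitro below, in Treg (red) and Tconv (blue); filled circles are arrays number 1, open triangles arrays number 2 and lines the mean of both. In Tconv in vivo Idh3a is highest at 8 h, at 10.3 and 10.41, and in Tconv in vitro its filled 0 h circle lies far below its partner (6.83 and 8.41).

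At 0 h, 1 of the 35 members was called between Treg and Tconv. Slc2a3 read 10.48 and 10.43 in Treg in vivo, against 8.9 and 8.56 in Tconv, a difference of 1.72 ± 0.18 or 3.3-fold (adjusted p = 6.18e-07). It read 10.42 and 10.69 in Treg in vitro, against 8.03 and 8.42 in Tconv (2.33 ± 0.18, adjusted p = 4.11e-09). The cell types did not overlap in either setting, and among all genes 3.1% were called in vivo and 11.2% in vitro. In vitro, Idh3a, Sucla2 and Pdha1 were called higher in Treg with a replicate block (adjusted p = 0.0345, 0.0348 and 0.0406) and not without it (0.0569, 0.0661 and 0.0618). The 0 h medians of Treg minus Tconv in vivo were -0.08, -0.03 and -0.12 for glycolysis, the pentose phosphate pathway and the TCA cycle. In vitro they were 0.23, 0.33 and 0.65 with all arrays and -0.06, -0.01 and -0.08 without the Tconv array number 1. At 72 h in vivo Slc2a3 read 10.85 and 10.82 in Treg and 9.41 and 9.28 in Tconv.

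The response itself was seldom called as different between the cell types. Treg minus Tconv was called for no member in vivo by limma (0.0483%, 0.233%, 0.0644% and 0.0161% of all genes at 2, 8, 24 and 72 h). At an unadjusted p under 0.05 there were 2 members at 2 h, 2 at 8 h, 0 at 24 h and 0 at 72 h. Of the 12425 genes tested there were 239, 468, 262 and 119 in turn. In vitro Treg minus Tconv was called without a replicate block only for Slc2a3 at 24 h (0.145%, 0.652%, 0.491% and 1.79% of all genes). With the block Pgk1 and Tkt at 8 h were called lower as well (adjusted p = 0.0239 and 0.0244, against 0.0875 and 0.111). Both differences use the Tconv 0 h array that stood apart. The 8 h medians for glycolysis and the pentose phosphate pathway were -0.49 and -0.67 with that array and -0.14 and -0.35 without it. At 24 h Slc2a3 had a difference from 0 h of -0.83 ± 0.18 in Treg and of 0.62 ± 0.18 in Tconv. The difference between them was -1.44 ± 0.26, adjusted p = 0.00492. It was also called without the Tconv 0 h array number 1, and lost without the Tconv array number 1 at 24 h (0.0687) or the Treg array number 2 at 24 h (0.0567), or with only the in vitro arrays in the fit (0.112). The Hk2 response at 2 h in vivo, 2.95 in Treg and 1.4 in Tconv, gave a difference of 1.55 ± 0.48 that was not called (adjusted p = 0.924).

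Between the settings, 4 differences were called, all in Treg and all in glycolysis. With a replicate block there were 8 in Treg and 4 in Tconv, again in glycolysis, with no share of all genes given for that fit. Hk2 was called higher at 2 h in vivo, while in vitro it read 6.73 and 6.59 at 2 h, against 7.05 and 6.38 at 0 h. The in vivo minus in vitro difference was 3.01 ± 0.48 (adjusted p = 0.000353), called with every array left out in turn; 3.68% of all genes were called in this comparison. At 72 h Tpi1 (-2.44 ± 0.57, adjusted p = 0.0252), Pgk1 (-1.8 ± 0.44, adjusted p = 0.0307) and Pgam1 (-1.66 ± 0.37, adjusted p = 0.0198) had a smaller response in vivo, with 1.58% of all genes called. Without the Treg array number 1 at 72 h in vitro these 3 were not called (adjusted p = 0.222, 0.236 and 0.139). Nor were they called without the Treg array number 2 at 72 h in vivo (0.19, 0.222 and 0.123) or without either 0 h array number 1 or the in vitro 0 h array number 2; Pgk1 and Pgam1 also lost the call without the in vivo 0 h array number 2. At 8 and 24 h no member was called by limma (0.362% and 0.0966% of all genes), with 10 and 2 of 35 members at an unadjusted p under 0.05. At that p there were 1133 and 789 of the 12425 genes tested. The 4 further calls in Treg with the block were Tpi1 and Pkm at 8 h, higher, and Hk2 and Aldoa at 72 h, lower (adjusted p = 0.0437, 0.0222, 0.0455 and 0.0321, against 0.16, 0.0859, 0.0877 and 0.0756). In Tconv no member was called at any time by limma, while 5.04%, 0.491%, 1.05% and 0.0885% of all genes were. In turn 4, 4, 5 and 14 of 35 members had an unadjusted p under 0.05 at 2, 8, 24 and 72 h. Of the 12425 genes tested 2971, 990, 1608 and 1603 did, so at 2 h the share was lower among the members. Tpi1 at 72 h had -2.24 ± 0.57, adjusted p = 0.143. The calls in Tconv with the block were Hk2 at 2 h and Pfkm at 8 h, higher (adjusted p = 0.0451 and 0.0409). Tpi1 and Pgk1 at 72 h were called lower (0.0362 and 0.0344). All these Tconv differences use the in vitro 0 h array that stood apart. At 72 h the glycolysis and TCA cycle medians were -0.79 and -0.78 with that array and -0.45 and -0.03 without it. At 8 h they were 0.39 and -0.18 with it and 0.81 and 0.56 without. Age, in part sex, the gate on the labels and the culture differ between the settings along with the route of KT3 and cannot be told apart.

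Isoforms of 1 step differed in which were called, a difference that was not itself tested. Hk1, the housekeeping hexokinase, read 9.27 and 9.04 in Treg at 2 h in vivo, against 9.19 and 8.81 at 0 h (0.16 ± 0.27, adjusted p = 0.913), and was not called in any of the 16 comparisons with 0 h. Ldhb, the heart type of lactate dehydrogenase, read 6.97 and 6.79 in Tconv at 8 h in vivo, against 7.14 and 6.88 at 0 h (-0.13 ± 0.31, adjusted p = 0.8), a comparison in which Ldha was called. The muscle type of phosphofructokinase, Pfkm, was called without a replicate block only lower, at 2 h in vitro in both cell types (-0.74 in Treg and -0.66 in Tconv). The call in Treg was lost without either 2 h array (adjusted p = 0.0793 and 0.281) or the 0 h array number 1 (0.398). That in Tconv was lost without the 0 h array number 1 (0.102) or the 2 h array number 1 (0.174). With the block Pfkm was also called lower in Tconv at 8 h in vitro (adjusted p = 0.0298), and higher in Tconv at 8 h in vivo (0.0463) and in Treg at 72 h in vitro (0.0222). Aldoc, the brain type of aldolase, was called in Treg at 72 h in vitro (1.1 ± 0.33, adjusted p = 0.0379; 0.399 without the 72 h array number 1 and 0.281 without the 0 h array number 2). With the block Aldoc was called lower in Treg at 8 h in vivo (adjusted p = 0.0237) and in Tconv at 2 and 8 h in vitro (0.0378 and 0.0275). In all, 26 of the 35 members were called at least 1 time against 0 h and 9 were not: Slc2a1, Hk1 and Ldhb of glycolysis, Rpe and Taldo1 of the pentose phosphate pathway, and Ogdh, Mdh1, Pdha1 and Pdhb of the TCA cycle. Pdha1, at the entry to the cycle, read 10.27 and 10.15 in Treg at 8 h in vivo, against 10.37 and 10.31 at 0 h, and 10.12 and 10.17 in Tconv, against 10.13 and 10.3. The differences of the 9 lay between -0.60 and 0.90 in all 16 comparisons. The share of all genes called at least 1 time was not counted, so 26 and the counts below cannot be set against it. Single comparisons with 0 h called from 0.0241% to 26.8% of all genes. Without a replicate block Pgls, Cs, Idh2, Idh3b and Sucla2, 5 of the 26, had calls in Tconv in vitro only. Without the 0 h array number 1 there, 27 members were called, with Mdh1, Pdha1 and Pdhb among them and Pgls and Sucla2 not. With a replicate block 28 were called, Taldo1 and Mdh1 in addition. Pgls and Idh2 then also had calls in vivo, in Tconv at 8 h and in Treg at 2 h (adjusted p = 0.0288 and 0.0468).

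Other genes of these pathways, listed with earlier results of these data known, were counted in the same way. At 8 h in vivo, 1 of 23 further glycolysis genes was called higher and 1 lower in Treg, and 4 higher and 1 lower in Tconv. Of 8 further pentose phosphate genes 1 was higher in Treg and 4 in Tconv, and of 25 further TCA cycle genes 1 was higher and 1 lower in Treg and 10 higher and 1 lower in Tconv. In Treg 8.7% of the further glycolysis and 8% of the further TCA cycle genes were called in either direction, against 9.67% of all genes. In Tconv 21.7%, 50% and 44% of the 3 lists were, against 21% of all genes, so the glycolysis list was called at about the share of all genes. Slc16a1, which encodes the lactate carrier MCT1, was called higher in 10 of the 16 comparisons, and in 9 without the Tconv 0 h array number 1 in vitro. Its largest difference was at 8 h in Tconv in vitro, where it read 9.69 and 9.44, against 5.82 and 7.92 at 0 h (2.69 ± 0.36, adjusted p = 1.19e-05; 1.64 ± 0.24 without the 0 h array number 1, adjusted p = 8.99e-05). In vivo at 2 h its difference was 2.33 ± 0.36 in Treg and 1.98 ± 0.36 in Tconv. Slc16a3, the lactate exporter MCT4, read 10.59 and 10.33 in Treg at 2 h in vitro, against 7.91 and 7.69 at 0 h (2.66 ± 0.33, adjusted p = 3.2e-06). Txnip, which restrains glucose uptake, was called lower in 9 comparisons (8 without that array) and read 9.63 and 9.17 in Tconv at 8 h in vivo, against 12.22 and 12.16 (-2.79 ± 0.34, adjusted p = 2.12e-06). The arrays of the compared groups did not overlap for any of these 3 genes. They were picked for the size of their called differences, so the lack of overlap adds no support.

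Got1, the cytosolic aspartate aminotransferase, was called higher in 9 of the 16 comparisons (7 without the Tconv 0 h array number 1 in vitro) and read 12.14 and 11.74 in Treg at 2 h in vitro, against 9.15 and 9.04 (2.85 ± 0.32, adjusted p = 1.02e-06). Prps1, which makes the ribose donor of nucleotides, read 10.55 and 10.48 in Tconv at 8 h in vitro, against 8.19 and 9.7 (1.57 ± 0.27, adjusted p = 0.000233; 0.82 ± 0.21 without the 0 h array number 1, adjusted p = 0.0103). Ribokinase (Rbks) read 8.83 and 8.54 in Tconv at 8 h in vivo, against 7.46 and 7.25 (1.33 ± 0.27, adjusted p = 0.000621). Both arrays lay above both 0 h arrays for each of these genes, which were also picked for the size of their called differences. The cytosolic isocitrate dehydrogenase Idh1 fell in Tconv at 2 h in vivo, to 5.81 and 5.8, against 7.15 and 7.0 (-1.27 ± 0.3, adjusted p = 0.0113). The pyruvate dehydrogenase kinase Pdk2 fell in Treg, to 6.48 and 6.79, against 7.37 and 7.3 (-0.7 ± 0.21, adjusted p = 0.0479). Dld, a subunit shared by the dehydrogenase complexes, at 2 h and Pklr, the liver type of pyruvate kinase, at 24 h in Tconv in vitro were called (1.69 and -0.86) but not without the 0 h array number 1 (adjusted p = 0.459 and 0.516).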

How the data were processed

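Affymetrix ST1.0 arrays of Treg and Tconv sorted from spleen were analysed. The authors deposited linear intensities made with RMA, in GenePattern per the labels' design text and with Affymetrix Power Tools per the submitters' processing notes; no version is stated there. RMA sets the probes of all arrays to one distribution before it summarises them, so levels are relative within an array. The deposited values did not share one distribution. Their interquartile ranges ran from 1.64 to 3.21 log2 units and their medians from 6.45 to 6.86. Values (4.8403 to 29756.3596) were taken to log2 without offset. Of 24922 clusters, 21425 had 1 symbol, and the cluster with the highest mean was kept for each of 19752 symbols. A gene was tested where 2 or more arrays read it above their own median (12425 genes; 7327 were removed). The 22 group means were fitted together by limma (3.58.1, under R 4.3.3), with p-values adjusted by Benjamini-Hochberg; residual degrees of freedom were 20. The fit was tested on simulated data. Members and lists were chosen with earlier results of these data known; the members named with values on each array were the entry and control points, isoform pairs and the 3 of each pathway with the largest called response, and those of other pathway genes the largest called rise and fall. Cross-hybridisation with pseudogenes was not examined. Same-numbered arrays did not deviate together throughout (correlation over 0.1 in 32 of 45 pairs of groups in vivo and 28 of 45 in vitro), and array number was not a block in the fit reported first. In vitro it goes with sex and age by the labels, so some of the 46 member calls gained with a replicate block are marked. Alternatives were other scalings, no filter, offset 16, the mean of clusters, a replicate block, arrays of 1 setting, and leaving out arrays. Sequences are from RefSeq (GRCm38.p6).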

Additional observations from a re-analysis of the deposited data

Results flagged for a closer look

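In 5 cases the response of a glycolysis gene to KT3 differed between groups by a test of the difference itself. Slc2a3 at 24 h in vitro had a Treg minus Tconv difference of -1.44 log2 units. Hk2 in Treg at 2 h had an in vivo minus in vitro difference of 3.01. Tpi1, Pgk1 and Pgam1 in Treg at 72 h had in vivo minus in vitro differences of -2.44, -1.80 and -1.66. All 5 are log2 differences with an adjusted p under 0.05 by limma, from 2 arrays per group. In these 3 comparisons, in turn, 1, 1 and 3 of 17 glycolysis members were called. Of all genes 0.491%, 3.68% and 1.58% were called. Slc2a3 lost the call without the Tconv array number 1 at 24 h (0.0687), without the Treg array number 2 at 24 h (0.0567) and with only the in vitro arrays in the fit (0.112). Tpi1, Pgk1 and Pgam1 lost it when any of several single arrays was left out, and Hk2 kept it with each array left out. The causes were not tested.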

How the results depend on the processing

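Called members over the times of a comparison were counted by cell type, setting and pathway, and the counts that changed by more than 1.5 times are given here with the count reported above. Smaller changes are not listed. Shares of all genes called in these other fits are not given here, so the counts cannot be set against them. After quantile normalization glycolysis calls were 6 (1 higher and 5 lower, instead of 1 and 1) for 24 h against 8 h in Treg in vivo, 3 (2 higher and 1 lower, instead of 1 and 0) for 24 h against 8 h in Tconv in vitro, 2 lower (instead of 1 lower) for Treg minus Tconv in vitro, 1 higher (instead of 0) for in vivo minus in vitro in Tconv and 7 (3 higher and 4 lower, instead of 1 and 3) for in vivo minus in vitro in Treg. Pentose phosphate calls were 1 lower (instead of 3 lower) for 24 h against 8 h in Tconv in vivo, 1 higher (instead of 2 higher) for Treg in vivo and 5 higher (instead of 8 higher) for Tconv in vitro. TCA cycle calls were 1 lower (instead of 0) for Treg in vivo, 4 lower (instead of 1 higher) for Treg in vitro and 3 (2 higher and 1 lower, instead of 0 and 0) for Treg against Tconv at 0 h in vitro. After median centring pentose phosphate calls were 1 higher (instead of 2 higher) for Treg in vivo. TCA cycle calls were 2 higher (instead of 1 higher) for Treg in vitro and 1 higher (instead of 0) for Treg against Tconv at 0 h in vitro. With no filter on dim genes pentose phosphate calls were 1 higher (instead of 2 higher) for Treg in vivo. TCA cycle calls were 1 lower (instead of 3 lower) for 24 h against 8 h in Tconv in vivo. With a replicate block (array number as a term) glycolysis calls were 4 (1 higher and 3 lower, instead of 1 and 1) for 24 h against 8 h in Treg in vivo, 3 higher (instead of 1 higher) for 24 h against 8 h in Tconv in vitro, 2 lower (instead of 1 lower) for Treg minus Tconv in vitro, 4 (2 higher and 2 lower, instead of 0 and 0) for in vivo minus in vitro in Tconv and 8 (3 higher and 5 lower, instead of 1 and 3) for in vivo minus in vitro in Treg. Pentose phosphate calls were 2 higher (instead of 1 higher) for Treg in vitro and 1 lower (instead of 0) for Treg minus Tconv in vitro. TCA cycle calls were 1 lower (instead of 0) for Treg in vivo, 2 higher (instead of 1 higher) for Treg in vitro and 3 higher (instead of 0) for Treg against Tconv at 0 h in vitro. With only the arrays of the same setting glycolysis calls were 4 (1 higher and 3 lower, instead of 1 and 1) for 24 h against 8 h in Treg in vivo, 17 (17 higher and 0 lower, instead of 28 and 2) for Tconv in vitro, 10 (8 higher and 2 lower, instead of 15 and 4) for Treg in vitro and 0 (instead of 1 lower) for Treg minus Tconv in vitro. Pentose phosphate calls were 5 higher (instead of 3 higher) for Tconv in vivo and 4 higher (instead of 8 higher) for Tconv in vitro. TCA cycle calls were 8 higher (instead of 4 higher) for Tconv in vivo, 5 lower (instead of 3 lower) for 24 h against 8 h in Tconv in vivo, 3 higher (instead of 0) for Treg in vivo, 1 lower (instead of 0) for 24 h against 8 h in Treg in vivo, 4 higher (instead of 17 higher) for Tconv in vitro and 0 (instead of 1 higher) for Treg in vitro. Without the 3 arrays of narrowest range (chosen after seeing the data) glycolysis calls were 5 (1 higher and 4 lower, instead of 1 and 1) for 24 h against 8 h in Treg in vivo, 3 (3 higher and 0 lower, instead of 28 and 2) for Tconv in vitro, 2 (1 higher and 1 lower, instead of 1 and 0) for 24 h against 8 h in Tconv in vitro, 1 higher (instead of 0) for in vivo minus in vitro in Tconv and 1 higher (instead of 0) for KT3 against IgG in Treg. Pentose phosphate calls were 0 (instead of 8 higher) for Tconv in vitro and 2 higher (instead of 1 higher) for Treg in vitro. TCA cycle calls were 7 higher (instead of 4 higher) for Tconv in vivo, 4 higher (instead of 0) for Treg in vivo, 1 higher (instead of 17 higher) for Tconv in vitro and 2 higher (instead of 1 higher) for Treg in vitro. With each array left out in turn, glycolysis calls ran from 9 to 14 for Tconv in vivo, 7 to 11 for 24 h against 8 h in Tconv in vivo, 8 to 14 for Treg in vivo, 2 to 5 for 24 h against 8 h in Treg in vivo, 6 to 40 for Tconv in vitro, 0 to 4 for 24 h against 8 h in Tconv in vitro, 13 to 22 for Treg in vitro, 1 to 4 for Treg against Tconv at 0 h in vitro, 0 to 15 for Treg minus Tconv in vitro, 0 to 21 for in vivo minus in vitro in Tconv, 1 to 7 for in vivo minus in vitro in Treg and 0 to 1 for KT3 against IgG in Treg. In the same fits, pentose phosphate calls ran from 2 to 4 for Tconv in vivo, 1 to 3 for 24 h against 8 h in Tconv in vivo, 0 to 3 for Treg in vivo, 2 to 15 for Tconv in vitro, 0 to 2 for Treg in vitro, 0 to 4 for Treg against Tconv at 0 h in vitro, 0 to 9 for Treg minus Tconv in vitro and 0 to 4 for in vivo minus in vitro in Tconv. Likewise, TCA cycle calls ran from 1 to 7 for Tconv in vivo, 1 to 4 for 24 h against 8 h in Tconv in vivo, 0 to 4 for Treg in vivo, 3 to 45 for Tconv in vitro, 0 to 2 for 24 h against 8 h in Tconv in vitro, 0 to 6 for Treg in vitro, 0 to 10 for Treg against Tconv at 0 h in vitro, 0 to 36 for Treg minus Tconv in vitro and 0 to 36 for in vivo minus in vitro in Tconv. Counts not listed for these fits did not change. The low Tconv counts in vitro (6, 2 and 3) came without the 0 h array number 1, and the high TCA cycle and pentose phosphate counts (45 and 15) without the 0 h array number 2, which leaves only the array that stood apart. Of 137 called member changes, 37 lost the call after quantile normalization, 4 after median centring, 13 with no filter, 41 of the 133 that could be run with arrays of the same setting, 54 without the 3 narrow arrays, and 0 with the offset of 16, the mean of clusters or the replicate block, which called 46 further ones; none reversed, and 50 kept it whichever array was left out. By the labels, same-numbered arrays share sex and age in vitro and only a number in vivo, where sorts differed (9 of 10 number 1 arrays single, 10 of 12 number 2 arrays double). Their deviations correlated in part (median r 0.30 in vivo and 0.22 in vitro over 45 pairs of groups each). The cause of each change was not tested. Groups of 2 arrays limit precision, and signal near background limits Hk2, Ldhb and other dim members at their low end.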
